A study of Homo sapiens with 4 samples.

Results

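The amyloid precursor protein family and the machinery that cuts and binds it were followed through 4 RNA libraries of A375, a human melanoma cell line. The members were 10 genes of the deposited table of 2864 genes, taken by name and not by their values: APP and its relatives APLP1 and APLP2, the beta-secretase genes BACE1 and BACE2, the APH1A and APH1B subunits of gamma-secretase, and the cytoplasmic adaptors APBB1, APBB2 and APBB3. The choice was made with earlier results of these data known. The libraries were untreated parental cells (A375P), a vemurafenib-resistant strain of the same line kept in vemurafenib at stepwise rising doses (A375R), cells given the solvent DMSO at 1‰ for 48 h (A375+DMSO) and cells given 2 μM vemurafenib for 48 h (A375+VEM). Vemurafenib inhibits the BRAF kinase. All 4 were labelled wild type, were grown in the same medium with serum, and carried the same batch label. The wild type label is not to be read as the state of BRAF, since the paper presents its work as on BRAF-mutated melanoma. Whether the resistant strain was 1 clone or a pool is not given in the sources used here. Each condition was sequenced as a single library, so differences lack a check by replicates and carry no p-value; the 95% intervals are exact Clopper-Pearson intervals on reads, cover counting error only, and compare libraries and not conditions.

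APP is a membrane protein that is cut outside the membrane either by alpha-secretases of the ADAM family or by the beta-secretase BACE1, after which gamma-secretase cuts inside the membrane. The order beta then gamma releases amyloid-beta, the peptide of Alzheimer plaques, and the released intracellular tail binds APBB adaptors, also called Fe65 proteins. Pigment cells are known for BACE2, which cuts the melanosome protein PMEL, while BACE1 is best known from neurons.

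The members made up an unequal set. TPM is the read count per gene length, scaled per library, and on this scale APP was the most abundant member in every library. It stood at rank 48 of 2258 protein-coding genes of the table in A375P, 25 in A375+DMSO, 29 in A375R and 14 in A375+VEM. The summed TPM of the 10 members was 664 in A375P, 854 in A375+DMSO, 737 in A375R and 1202 in A375+VEM. The last of these sums was thus the highest. A table of part of the genome gives no library depth; the table genes held 2054277 reads in A375P, 1891215 in A375+DMSO, 1963230 in A375R and 1932550 in A375+VEM, and of these 23048, 27064, 23316 and 38750 were on the members in that order.

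Of the 10 members, 7 had an entry in the RefSeq promoter table (GRCh38.p14), and 5 of these lay at the outermost start of the gene. The 250 bases before that start are shown for BACE1, APP and APLP1, the members with the widest contrast between libraries or the highest level, with GC boxes (GGGCGG, or CCGCCC on the other strand) in capitals. The window of BACE1 is chr11:117316257-117316506 on the minus strand, that of APP is chr21:26171129-26171378 on the minus strand, and that of APLP1 is chr19:35868324-35868573 on the plus strand.
BACE1: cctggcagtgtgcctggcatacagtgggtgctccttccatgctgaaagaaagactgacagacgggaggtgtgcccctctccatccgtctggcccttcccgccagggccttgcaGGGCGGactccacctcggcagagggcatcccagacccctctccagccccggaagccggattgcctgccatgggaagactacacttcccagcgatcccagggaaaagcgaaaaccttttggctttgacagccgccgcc
APP: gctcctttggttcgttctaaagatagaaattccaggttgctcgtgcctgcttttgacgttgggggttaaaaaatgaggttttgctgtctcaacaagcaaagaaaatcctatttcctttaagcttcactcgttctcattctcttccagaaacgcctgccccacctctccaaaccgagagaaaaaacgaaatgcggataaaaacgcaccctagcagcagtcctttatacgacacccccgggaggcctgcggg
APLP1: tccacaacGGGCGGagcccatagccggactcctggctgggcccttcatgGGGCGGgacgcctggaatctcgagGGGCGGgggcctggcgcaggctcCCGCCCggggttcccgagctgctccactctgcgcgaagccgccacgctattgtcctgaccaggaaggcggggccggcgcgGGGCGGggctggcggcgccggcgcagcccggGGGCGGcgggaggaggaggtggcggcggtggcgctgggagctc
BACE1 held 1 GC box, APP held 0 and APLP1 held 6. Of the 5 windows at outermost starts, 3 held a GC box, where 42.6% of 35116 RefSeq promoter windows of this length did. None of the 5 held an E-box (CACGTG, in 6.34% of all windows), an M-box (TCATGTG, in 2.52%) or an AP-1 site (TGANTCA, in 6.57%), each searched on both strands, and 2 held an ETS site (CCGGAA, in 14.5%), those of BACE1 and APH1A. A match in letters is a description and not a binding site, and the motifs were chosen after the sequences were seen.

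**Figure D1:**
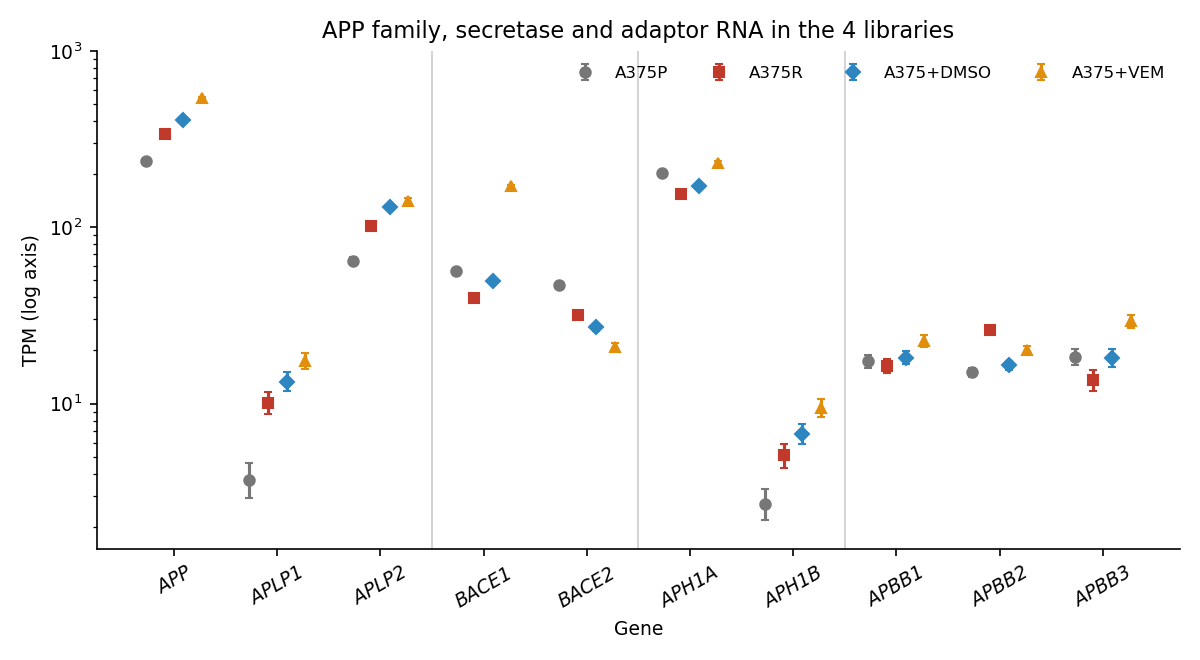
TPM of the 10 members in A375P, A375R, A375+DMSO and A375+VEM on a log axis, with 95% counting intervals. BACE1 in A375+VEM stands at 170.5, apart from its 3 other libraries between 39.8 and 56.5, and the APP family climbs from A375P to A375+VEM.

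BACE1, the beta-secretase that makes the first amyloidogenic cut, was the member that differed most between A375+VEM and A375+DMSO. It lies on the minus strand of chromosome 11, from 117156402 to 117186972 in hg19 as the deposited table gives positions. Its TPM was 56.5 in A375P (2915 reads), 39.8 in A375R (1855 reads), 49.4 in A375+DMSO (2376 reads) and 170.5 in A375+VEM (8150 reads). A375+VEM was above all the others, and the other libraries lay close together. The A375+VEM level of BACE1 was 3.45 times that of A375+DMSO (95% interval 3.30 to 3.62), and 5.33% of the genes compared had a higher ratio. It was 3.02-fold higher than in A375P (2.89 to 3.15) and 4.28-fold higher than in A375R (4.07 to 4.51), so the difference stood against each library without acute drug. In A375R it was the other way: the level was 0.704 times that of A375P (0.664 to 0.747) and 0.806 times that of A375+DMSO (0.759 to 0.857), both short of the 1.5-fold threshold used for calls, which the first passed under 1 of 3 other scalings, to a median ratio of 1 (log2 ratio -0.60).

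BACE2, the close relative, lies on chromosome 21 (hg19, plus strand, 42539728 to 42654461) and had another order of libraries. Its TPM was 47.1 in A375P (3606 reads), 31.8 in A375R (2196 reads), 27.0 in A375+DMSO (1931 reads) and 20.9 in A375+VEM (1482 reads). The untreated parental library was highest and the acutely treated library lowest, so the beta-secretase genes parted in A375+VEM, while both were lower in A375R and in A375+DMSO than in A375P. BACE2 in A375+VEM was 0.444 times the level in A375P (0.417 to 0.471) and 0.773 times that in A375+DMSO (0.722 to 0.827). Most of the distance from A375P was already present in A375+DMSO, which had 0.574 times the level of A375P (0.543 to 0.607).

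Within a library, scaling between libraries plays no role in a ratio of genes. BACE1 over BACE2, as TPM, was 1.20 in A375P (1.14 to 1.26), 1.25 in A375R (1.18 to 1.33), 1.83 in A375+DMSO (1.72 to 1.94) and 8.16 in A375+VEM (7.72 to 8.63). The genes were thus near parity in A375P and A375R and far apart under acute vemurafenib. The summed TPM of both beta-secretase genes was 104 in A375P, 76.4 in A375+DMSO, 71.6 in A375R and 191 in A375+VEM.

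BACE1 shares exon bases with genes on the opposite strand. In GENCODE, BACE1-AS covers 1872 of the 7190 exon bases of BACE1 (26.0%) and RNF214, not analysed here, covers 1239 (17.2%), while the positions of BACE1-AS and BACE1 in the deposited table overlap by 825 bases. The strand setting of the counting is not given in the sources used here, so reads of these partners cannot be told apart from those of BACE1 where they overlap. BACE1-AS, a noncoding antisense transcript of BACE1, had 64 reads in A375P, 50 in A375+DMSO, 34 in A375R and 43 in A375+VEM. Its ratio was 0.866 between A375+VEM and A375+DMSO (0.562 to 1.33), an interval that holds 1. Between A375R and A375P its ratio was 0.588 (0.376 to 0.905).

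**Figure D2:**
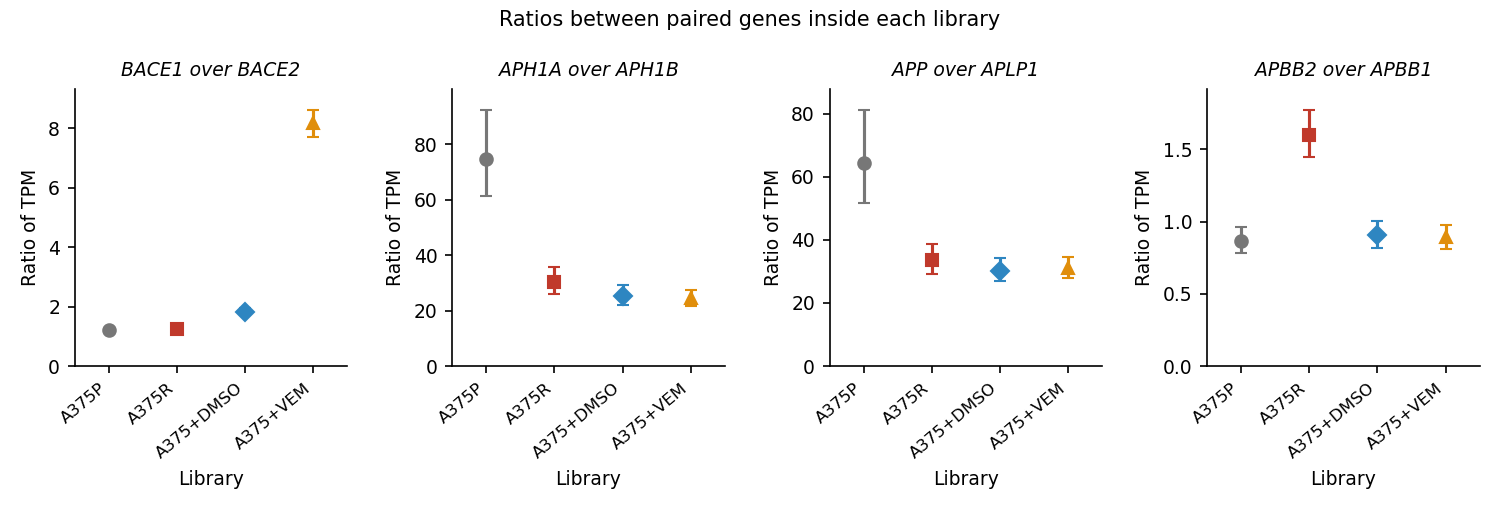
Ratios of TPM between paired members inside each of the 4 libraries on linear axes from 0, with 95% counting intervals. BACE1 over BACE2 is 8.16 in A375+VEM and at most 1.83 elsewhere, and APBB2 over APBB1 is above 1 in A375R only.

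The APP family itself was lowest in A375P and highest in A375+VEM. APP, on the minus strand of chromosome 21 (hg19, 27252861 to 27543446), had a TPM of 237 in A375P (8148 reads), 337 in A375R (10485 reads), 404 in A375+DMSO (12961 reads) and 539 in A375+VEM (17191 reads). APLP2, a widely expressed relative on chromosome 11 (plus strand, 129939716 to 130014706), had 64.7, 102, 130.4 and 142 in the same order (2214, 3151, 4163 and 4489 reads). APLP1, a relative best known from neurons, on chromosome 19 (plus strand, 36359347 to 36370699), had 3.68, 10.1, 13.3 and 17.4 (79, 195, 267 and 346 reads). In GENCODE, NPHS1 covers 6.35% of the APLP1 exon bases on the opposite strand, and reads there cannot be told apart without the strand setting. All 3 genes had the same order of libraries, with A375R between A375P and A375+DMSO.

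A375R therefore stood above one control and below the other. Against A375P, APP was 1.42-fold (1.38 to 1.47), APLP2 1.58-fold (1.49 to 1.66) and APLP1 2.73-fold (2.09 to 3.60). Against A375+DMSO the ratios in A375R were 0.836 for APP (0.814 to 0.857), 0.782 for APLP2 (0.746 to 0.819) and 0.754 for APLP1 (0.624 to 0.911). The direction for the resistant strain thus turned with the choice of control, and the solvent library without vemurafenib was itself 1.70-fold (1.66 to 1.75), 2.02-fold (1.91 to 2.12) and 3.62-fold (2.81 to 4.72) above A375P for APP, APLP2 and APLP1.

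The family differed less between A375+VEM and A375+DMSO than between A375+DMSO and A375P. From A375+DMSO to A375+VEM the ratio was 1.34 for APP (1.31 to 1.37), 1.30 for APLP1 (1.11 to 1.54) and 1.09 for APLP2 (1.04 to 1.13, turning below 1 under TMM scaling of the counts, at a log2 ratio of -0.03), with 0 of 3 past 1.5-fold, where 46.2% of 1784 genes were. The 3 genes had a summed TPM of 305 in A375P, 547 in A375+DMSO, 449 in A375R and 698 in A375+VEM. APP supplied most of it throughout: 77.6% in A375P, 73.7% in A375+DMSO, 75.1% in A375R and 77.2% in A375+VEM. APLP1 supplied 1.21% in A375P and between 2.24% and 2.49% in the other libraries. APP over APLP1 was 64.3 in A375P (51.6 to 81.3), while it was 33.5 in A375R (29.1 to 38.8), 30.3 in A375+DMSO (26.8 to 34.3) and 31.0 in A375+VEM (27.9 to 34.6), and these last intervals overlap.

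The APH1 subunits, which scaffold the gamma-secretase complex, did not run together. APH1A (chromosome 1, minus strand, hg19 150237799 to 150241609) had a TPM of 202 in A375P (3923 reads), 155 in A375R (2718 reads), 170.4 in A375+DMSO (3087 reads) and 231 in A375+VEM (4163 reads). APH1B (chromosome 15, plus strand, 63569749 to 63601325) had 2.70, 5.08, 6.74 and 9.46 (97, 165, 226 and 315 reads). APH1A stayed within 1.49-fold over all libraries, and APH1B spanned 3.50-fold in the order seen for the APP family. In A375R, APH1B was 1.88-fold above A375P (1.46 to 2.45) but 0.754 times the level of A375+DMSO (0.613 to 0.926). Under acute vemurafenib it was 1.40-fold above A375+DMSO (1.18 to 1.67). APH1A over APH1B was 74.8 in A375P (61.2 to 92.5), 30.5 in A375R (26.0 to 35.9), 25.3 in A375+DMSO (22.1 to 29.1) and 24.5 in A375+VEM (21.8 to 27.5), so APH1A remained the main APH1 transcript in all 4. In GENCODE, C1orf54 covers 14.1% of APH1A exon bases on the opposite strand. Other parts of the complex were not analysed here.

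The APBB adaptors bind the intracellular tail of APP and its relatives. APBB2, on the minus strand of chromosome 4 (hg19, 40812044 to 41216635), had a TPM of 15.1 in A375P (1187 reads), 26.2 in A375R (1866 reads), 16.5 in A375+DMSO (1213 reads) and 20.1 in A375+VEM (1465 reads). It was the only member highest in A375R. Its level in A375R was 1.74-fold that of A375P (1.62 to 1.87) and 1.59-fold that of A375+DMSO (1.48 to 1.71), and 8.58% of the genes compared had a higher ratio against A375+DMSO. In A375+VEM it was 1.22-fold above A375+DMSO (1.13 to 1.31).

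APBB1 (chromosome 11, minus strand, 6416354 to 6440702) had a TPM of 17.4 in A375P (538 reads), 16.4 in A375R (459 reads), 18.2 in A375+DMSO (527 reads) and 22.5 in A375+VEM (647 reads). The first 3 levels could not be separated at this depth: the interval held 1 for A375R against A375P (0.832 to 1.07), for A375+DMSO against A375P (0.929 to 1.19) and for A375R against A375+DMSO (0.792 to 1.02). APBB2 over APBB1 was 0.868 in A375P (0.783 to 0.963), 1.60 in A375R (1.44 to 1.78), 0.906 in A375+DMSO (0.817 to 1.01) and 0.891 in A375+VEM (0.812 to 0.979). APBB2 was thus the more abundant of the pair in the resistant strain and not in the other libraries.

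APBB3 (chromosome 5, minus strand, 139937853 to 139944189) had a TPM of 18.4 in A375P (341 reads), 13.5 in A375R (226 reads), 18.1 in A375+DMSO (313 reads) and 29.3 in A375+VEM (502 reads). Like BACE1 it was lowest in A375R and highest in A375+VEM, and so were APH1A, whose A375+VEM level was not above A375P with TMM or DESeq2 factors (log2 ratio -0.03 with TMM), and APBB1, whose 3 lower levels could not be separated. Under acute vemurafenib APBB3 was 1.62-fold above A375+DMSO (1.40 to 1.87), and in A375R it had 0.734 times the level of A375P (0.617 to 0.871) and 0.746 times that of A375+DMSO (0.626 to 0.888). A375P and A375+DMSO could not be separated (ratio 0.984, 0.841 to 1.15). In GENCODE, AC116353.4 covers 9.81% and MIR6831 covers 2.21% of the APBB3 exon bases on the same strand, and SLC35A4 covers 8.61% on the opposite strand, so reads there cannot be told apart.

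**Figure D3:**
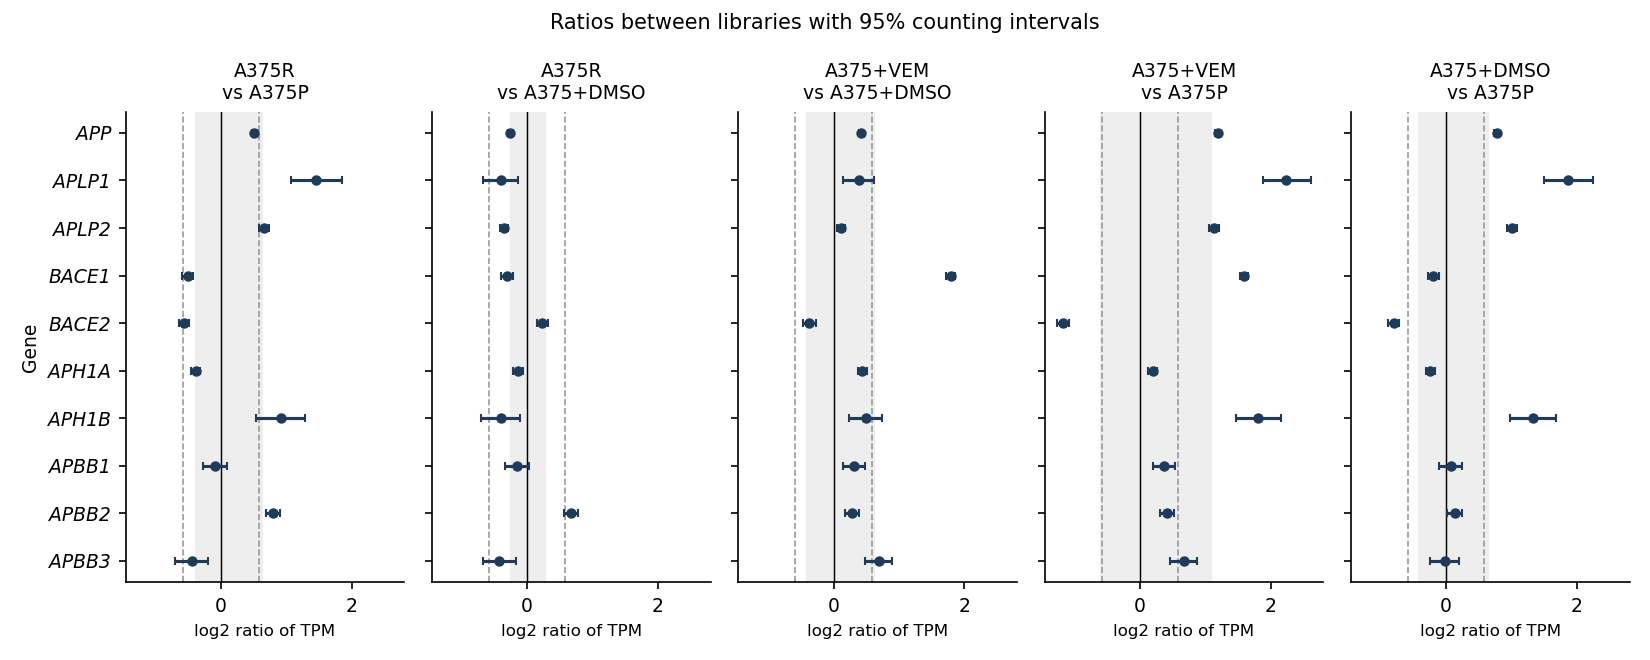
Log2 ratios of TPM of the 10 members in 5 library pairs with 95% counting intervals; dashed lines mark 1.5-fold and the shaded band holds the middle 50% of all genes compared. APLP1, APLP2 and APH1B lie right of 0 in A375R against A375P and left of 0 against A375+DMSO, and BACE1 lies far right in A375+VEM against both controls.

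For the members as a set, a gene was called past 1.5-fold on the ratio of (TPM + 0.1), which understates the change of low genes, wherever the TPM reached 1 in a library of the pair; log2 values are on this scale, while folds are ratios of TPM. All 10 members passed that filter in every pair. In A375R against A375P, 4 of 10 were higher (APLP1, APLP2, APH1B and APBB2) and 0 lower, where 44.3% of 1689 genes were past the threshold, 26.8% higher and 17.5% lower. Under each of 3 other scalings APLP2 fell short of it and BACE2 passed it downward, and with a median ratio of 1 BACE1 passed it downward too (3 higher and 2 lower). The members' median log2 ratio was 0.21, beside 0.0986 for all genes compared. In A375R against A375+DMSO only APBB2 was past the threshold (20.5% of 1702 genes were, 10.5% higher and 9.99% lower), 8 of 10 members were below 0, and the median was -0.28 beside 0.0162. The share of members past the threshold was thus near or below that of the table in both.

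In A375+VEM against A375+DMSO, 2 of 10 were higher, BACE1 and APBB3, and 0 lower, where 46.2% of 1784 genes were past the threshold, 26.5% higher and 19.7% lower. APBB3 fell short of it under each of 3 other scalings. Small differences upward were common: 9 of 10 members had a log2 ratio above 0 (8 of 10 with TMM factors), where 56.8% of all genes compared did. The members' median was 0.40 beside 0.105 for all genes. Against A375P, 6 members were higher in A375+VEM (APP, APLP1, APLP2, BACE1, APH1B and APBB3) and BACE2 was lower, where 62.1% of 1782 genes were past the threshold, 36.9% higher and 25.3% lower. APBB3 fell short there too under each of 3 other scalings. The members' median log2 ratio there was 0.90 beside 0.152. Against A375R, 5 members were higher in A375+VEM (APP, APLP1, BACE1, APH1B and APBB3) and BACE2 was lower, where 54.7% of 1773 genes were past the threshold, 30.8% higher and 23.9% lower. APP fell short under each of 3 other scalings.

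The libraries without vemurafenib also stood apart from each other. In A375+DMSO against A375P, 4 members were higher (APP, APLP1, APLP2 and APH1B) and BACE2 was lower, while 45.7% of 1720 genes were past 1.5-fold, 26.8% higher and 18.9% lower. This share is no smaller than that between A375R and A375P. A375R and A375+DMSO were the nearest pair in the table, with 20.5% of genes past the threshold. Solvent, culture and library cannot be told apart with 1 library each, and in bulk RNA fewer cells of a type and less RNA per cell cannot be told apart either.

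The members were not wider in range than other genes. Over the 4 libraries the highest TPM was 4.73 times the lowest for APLP1, 4.28 times for BACE1, 3.50 times for APH1B, 2.28 times for APP, 2.25 times for BACE2, 2.19 times for APLP2 and 2.17 times for APBB3. APBB2 spanned 1.74-fold, APH1A 1.49-fold and APBB1 1.37-fold. The median log2 range was 1.15 for the members and 1.15 for the 1817 genes whose TPM reached 1 in a library.

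The genes whose pattern over the 4 libraries lay nearest to that of APP were AK3, APIP, BTN2A2, ALDH3A2 and ATF7. The root mean square difference of their centred log2 values from those of APP was between 0.0518 and 0.0637 among 1227 genes ranked. APLP2 came at rank 27 and APLP1 at rank 410. For APLP1, the member with the widest range, the nearest genes were C14orf93, ALDH7A1, ARHGEF25, ABCA2 and ANO8, at 0.0791 to 0.151. With only 4 libraries the likeness is a description.

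Other genes of the pathway were taken from lists of named genes in the table. These lists too were chosen with earlier results of these data known, so their counts beside the whole table are a description. The alpha-secretases, which cut APP without releasing amyloid-beta, parted ways under acute vemurafenib. ADAM10 had a TPM of 43.7 in A375P, 62.6 in A375+DMSO, 65.3 in A375R and 121 in A375+VEM. ADAM9 had 74.2, 84.4, 95.8 and 49.2 in the same order, and ADAM17 had 40.1, 51.0, 53.0 and 66.2. ADAM10 in A375+VEM was 1.94-fold above A375+DMSO (1.85 to 2.04) and ADAM9 had 0.584 times the level (0.549 to 0.621), so the most abundant of the 3 was ADAM10 in A375+VEM and ADAM9 in the other libraries. Between A375R and A375P 0 of 3 were past 1.5-fold in either direction, where 44.3% of all genes compared were, with ADAM10 at 1.49-fold (1.41 to 1.59).

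Among the other APP adaptors, 3 of 4 could be compared, since APBA1 stayed under a TPM of 1. APBA3, an X11 family adaptor, was past 1.5-fold in A375R against A375P at 1.72-fold (1.46 to 2.03) and in A375+VEM against A375+DMSO at 1.76-fold (1.52 to 2.04). APPBP2, which binds the APP tail, in A375+VEM was 1.68-fold above A375+DMSO (1.52 to 1.85). APBA2 was past the threshold in neither pair, so 1 of 3 was past it in the first, where 44.3% of all genes were, and 2 of 3 in the second, where 46.2% were. Against A375+DMSO, 0 of 3 were past it in A375R, where 20.5% of all genes were.

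The next list held 20 genes for coats, small GTPases and other factors that sort APP and BACE1 between Golgi, endosomes and cell surface. Of these, 4 were higher in A375R than in A375P (AP2A1, AP2A2, AP4M1 and BIN1) and 2 lower (AP4S1 and ARFGEF2), where 26.8% of all genes compared were higher and 17.5% lower. BIN1 entered the comparison only through its level in A375R, and without it 3 of 19 were higher. ARF1 and ARF4 also passed the threshold downward under each of 3 other scalings. BIN1, a membrane-bending protein that is a known Alzheimer risk gene, had 28 reads in A375P, 130 in A375+DMSO, 133 in A375R and 116 in A375+VEM. A375P alone was low, and A375R was 5.26-fold above it (3.48 to 8.21) but 1.06-fold against A375+DMSO (0.824 to 1.36). AP4M1, a subunit of the AP-4 coat, in A375R was 3.44-fold above A375P (2.88 to 4.13) and 1.35-fold against A375+DMSO (1.18 to 1.54). With A375+DMSO as the control 0 of 20 were past 1.5-fold in A375R, where 20.5% of all genes were. In A375+VEM against A375+DMSO 4 were higher (AP1S2, AP2A2, AP4S1 and ARFGEF2) and 0 lower, where 26.5% of all genes were higher and 19.7% lower. Under each of 3 other scalings AP1S2 was the only one of them still past the threshold, and ARF6 passed it downward.

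Genes for proteins that bind, export or break down amyloid-beta held the largest ratios of these lists under acute vemurafenib: 5 of 7 compared were past 1.5-fold above A375+DMSO in A375+VEM and 0 below, or 4 of 6 without ACE, which reached a TPM of 1 in A375+VEM alone, where 26.5% of all genes were higher and 19.7% lower. ACE, angiotensin-converting enzyme, which can degrade amyloid-beta, had 13 reads in A375P, 40 in A375+DMSO, 17 in A375R and 365 in A375+VEM. It was 9.19-fold above A375+DMSO (6.62 to 13.1). A2M, a secreted protease inhibitor that binds amyloid-beta, had a TPM of 2.14 in A375P, 11.7 in A375+DMSO, 5.32 in A375R and 73.7 in A375+VEM, a 6.32-fold difference over A375+DMSO (5.73 to 6.98).

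ABCA7, a lipid transporter, had a TPM of 2.84, 4.93, 4.82 and 19.7 in A375P, A375R, A375+DMSO and A375+VEM, 4.09-fold above A375+DMSO (3.57 to 4.70). For these 3 genes A375+VEM stood above every other library. ABCA1, a lipid exporter, was 1.69-fold above A375+DMSO (1.48 to 1.93) but below A375P, and the lipoprotein gene APOE 1.53-fold (1.27 to 1.84), which fell short of the threshold under 3 other scalings. BLMH, a cytoplasmic protease and the most abundant gene of this list, had a TPM of 80.0 in A375P, 79.7 in A375+DMSO, 81.0 in A375R and 105 in A375+VEM and was not past the threshold. In A375R against A375P, A2M, ABCA7 and APOE were higher and 0 of 6 lower, where 26.8% of all genes were higher and 17.5% lower. AGER (22 and 37 reads) passed the threshold downward there under each of 3 other scalings, though its interval holds 1 (0.370 to 1.15). Against A375+DMSO, A2M had 0.456 times the level (0.386 to 0.538), AGER had 0.583 times the level at 22 and 39 reads, with an interval that holds 1 (0.329 to 1.01), and ABCA1 was 2.63-fold higher (2.32 to 2.98).

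**Figure D4:**
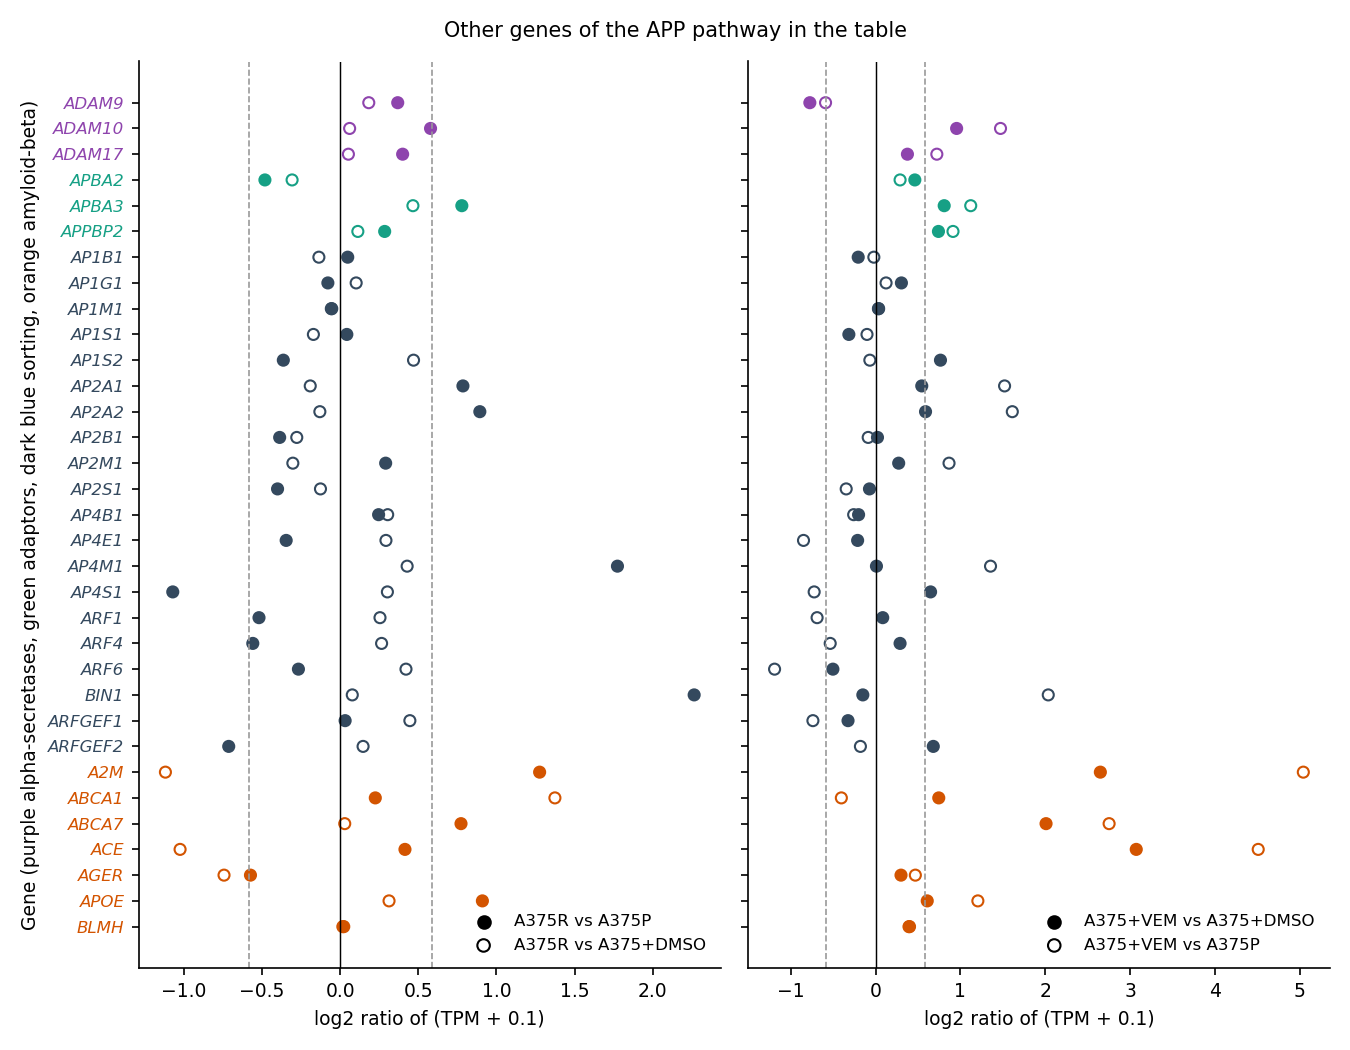
Log2 ratios of (TPM + 0.1) of the pathway genes outside the family that could be compared, for A375R (left, where ACE stayed under a TPM of 1) and A375+VEM (right), filled against the paired control and open against the other library without vemurafenib; dashed lines mark 1.5-fold. ACE, A2M and ABCA7 lie far right in A375+VEM against both controls. BIN1 and AP4M1 lie far right in A375R and in A375+VEM against A375P, and in neither against A375+DMSO.

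Markers of cell types were read beside these results. Among the melanoma and pigment cell genes in the table, ABCB5 had 4 reads in A375P, 1 in A375+DMSO, 0 in A375R and 6 in A375+VEM, and BIRC7 had 3, 9, 1 and 18 in that order. These markers were thus at or near 0, while ALCAM, an adhesion molecule of melanoma cells, had a TPM of 122 in A375+VEM and 24.2 in A375+DMSO. The best known pigment cell genes, such as MITF, MLANA and PMEL, were not analysed here. Markers of B cells, myeloid cells, astrocytes, adipocytes and endothelium each summed to a TPM under 2, with the highest sum, 1.64, for endothelium in A375+VEM. The summed TPM of the 5 hepatocyte genes was 83.5 in A375P, 64.4 in A375+DMSO, 69.4 in A375R and 62.4 in A375+VEM, with ALB the most abundant at 64.5, 47.1, 51.5 and 46.4. ACTA2, a smooth muscle actin, had a TPM of 92.2 in A375P and 35.0, 28.3 and 40.1 in A375R, A375+DMSO and A375+VEM, and the muscle gene ACTN2 had 4.02 in A375P and 0.640 in A375+VEM. These differ between libraries along with the members; their part in the members' differences was not tested.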

How the data were processed

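Sequencing covered A375P, A375+DMSO, A375R and A375+VEM, with 1 library each, grouped by the sample labels. The authors deposited 1 table with whole-number read counts and TPM per gene and library; the deposited TPM equals count over gene length times 1 constant per library (117, 125, 129 and 126). The submitters' processing notes name hg19, HISAT2, HISAT, TopHat2 and Bowtie2; the counting program, annotation and strand setting are not given in the sources used here. The table used here is the alphabetical part of the gene list up to CAC, with 2864 genes (1 incomplete row left out) that carry 8.48%, 8.76%, 8.94% and 8.83% of the TPM of the libraries in the order above; 0 sample columns were left unused. Counting error limits each value; PCR duplicates were not separable.

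Pairs were compared by the ratio of (TPM + 0.1), with a TPM of at least 1 in a library of the pair and a threshold of 1.5-fold. Single-gene 95% intervals are exact (Clopper-Pearson, on reads), scaled by the TPM constants. No test between conditions was possible. The members and lists were chosen with earlier results of these data known. Named genes were the 10 members, listed pathway genes past 1.5-fold or at a TPM of at least 10, and the 5 genes nearest in pattern to APP and to the member of widest range. Exon overlaps came from GENCODE (GRCh38) and promoter sequences from RefSeq (GRCh38.p14); hg19 positions are those of the table. No stretch of 50 bases was shared between the transcripts of different members.

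Alternatives were pseudocounts of 1 and 0.01, no filter, a TPM of at least 5, median scaling, edgeR TMM factors, DESeq2 size factors, a threshold of 2-fold and the other control; a whole interval past 1.5-fold was added after seeing the data. edgeR and DESeq2 gave scaling factors only. In simulated data of 2864 genes with 200 changed 3-fold, 99.5% were recovered in A375R against A375P, with 44 other genes called. In A375+VEM against A375+DMSO 100% were recovered, with 60 other genes called. The simulated reads held counting error only, so they say nothing about variation between cultures or libraries. R 4.3.3 with DESeq2 1.42.0 and edgeR 4.0.16, and Python 3.11.15 with matplotlib 3.10.9, pandas 2.3.3, scipy 1.17.1 and numpy 2.4.6, were used.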

Additional observations from a re-analysis of the deposited data

Results flagged for a closer look

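Several named genes lay below A375P in A375R and above A375+DMSO in A375+VEM. The 4 given first are the members and pathway genes that met the following rule. The 95% intervals left out 1 in both pairs, and the gene was past 1.5-fold in both pairs or, for family members, in at least 1. With 1 library per condition this difference between the pairs was not tested. BACE1 had a log2 ratio of -0.50 in A375R against A375P and 1.79 in A375+VEM against A375+DMSO, a distance of 2.29, and with the other controls it had -0.31 and 1.59. APBB3 had -0.44 and 0.69, a distance of 1.13, and with the other controls -0.42 and 0.67. The sorting genes did not keep their directions: AP4S1 had -1.07 and 0.65, a distance of 1.72, but 0.30 and -0.72 with the other controls. ARFGEF2 had -0.71 and 0.68, a distance of 1.39, but 0.15 and -0.18 with the other controls. Of the melanoma and pigment cell markers, CA14 and ASAH1 met the same rule. CA14 had -1.60 and 1.45, at 8 reads in A375R, and -1.55 and 1.41 with the other controls. ASAH1 had -1.02 and 1.02, but -0.03 and 0.02 with the other controls.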

How the results depend on the processing

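In A375R against A375P, the count of members past 1.5-fold (4) became 1 at a 2-fold threshold (APLP1), 1 with A375+DMSO as the control (APBB2) and 2 where the whole 95% interval had to be past 1.5-fold (APLP1 and APBB2); with median scaling it was 5, 3 higher and 2 lower (BACE1 and BACE2). With A375+DMSO as the control the median log2 ratio was -0.28, and APLP1 (-0.40), APLP2 (-0.35) and APH1B (-0.40) reversed; APP, not past 1.5-fold in the first place, turned to -0.26 and BACE2 to 0.23. In A375+VEM against A375+DMSO, the count (2) became 1, BACE1, with median scaling, with TMM factors, with DESeq2 size factors, at 2-fold and where the whole interval had to be past 1.5-fold; with A375P as the control it became 7. The median log2 ratio there was 0.25 with TMM factors and 0.90 with A375P as the control. In A375+DMSO against A375P, the count (5) became 3 at 2-fold (APLP1, APLP2 and APH1B). Of 170 further values for single members under settings other than the filter, 114 moved by less than counting error, 53 moved by more and 3 that had been past 1.5-fold reversed, those named above. TMM factors moved the median of all genes in A375+VEM against A375+DMSO from 0.105 to -0.0527 and the share of higher genes among those past the threshold from 57.3% to 46.9%; APLP2 then had a log2 ratio of -0.03. Under all 3 scalings APBB3, APOE, AP2A2, AP4S1 and ARFGEF2 fell short of 1.5-fold in that pair and APLP2 did in A375R against A375P, while BACE2, ARF1, ARF4 and AGER passed it downward there, as ARF6 did in A375+VEM against A375+DMSO. APBB3 in A375+VEM against A375P and APP in A375+VEM against A375R also fell short under all 3. No library could be left out, with 1 per condition. No paired analysis was possible because each group had 1 library and the result came from no test.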
